A study of Mus musculus with 11 samples.

Results

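The lung tumors tagged ADC were compared directly with those tagged ADN. All 6 tumors of the series entered the comparison, 3 of each tag, out of 11 libraries in all, and the 5 normal lungs were set aside except as a reference level. Every mouse was Gprc5a-/-, so each tumor grew in an animal without this retinoic acid-induced G protein-coupled receptor of the lung epithelium. Each mouse had also been injected intraperitoneally with NNK (nicotine-derived nitrosamine ketone), a carcinogen of tobacco smoke, over 8 weeks, with 3 doses of 50 mg/kg in each week. The ADN tumors came from mouse m335 at 4 months after NNK, mouse m368 at 6 months and mouse m350 at 7 months. The ADC tumors came from mouse m335 at 4 months and from mice m372 and m378 at 7 months. Tags were read from the library titles, which do not spell them out, and no sex, strain background or age at dosing is given in the labels. Mouse m335 gave a tumor of each tag, the other tumors came from separate mice, and mouse, months and tag can be told apart only in part.

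Chemically induced mouse lung tumors arise mostly from alveolar type 2 and club cells and range from benign adenomas to adenocarcinomas. Alveolar type 2 cells make surfactant under the control of lineage factors such as Nkx2-1, and tumors that lose this control can express genes of the gut and liver, the neighboring endoderm. EGF receptor ligands and the feedback inhibitors of the MAP kinase cascade serve as readouts of pathway output.

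Levels are given as CPM, counts scaled to TMM-adjusted library sizes, which can be compared between tumors for 1 gene but not between genes of different length. Values are listed in the order of mice m335, m368 and m350 for ADN and m335, m372 and m378 for ADC. Gprc5a itself (chromosome 6, 135065662 to 135084708, GRCm38) stood at 0.187, 0 and 0.0343 CPM in the ADN tumors and 0.607, 0.283 and 0.255 CPM in the ADC tumors. These are 0 to 19 counts per tumor, fewer than the filter for testing asks. Total counts ran from 27504579 to 46987587 per tumor, both of them ADC libraries. The ribosomal precursor Rn45s took 12.9% to 19.2% and hemoglobin genes took 0.111% to 0.544%. As a check of the tissue, the lung epithelial markers Nkx2-1, Epcam and Cdh1 summed to 497 to 954 CPM in the tumors and 355 to 399 CPM in the normal lungs, and none was below 78.7 CPM in any tumor.

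The tumors did not separate by tag on principal components 1 and 2. On component 3 (16.5% of the variance) they did. The ADN tumors were at -8.01, -18.2 and -69.1 there and the ADC tumors at 2.88, 53.1 and 39.3. The ADC tumors of mice m372 and m378 were the most alike of the 15 pairs, with a Spearman correlation of 0.973 across genes and 2.29% of genes at least 4-fold apart. The ADC tumor of mouse m335 stood apart from both, at 0.871 and 0.877. Among the 11141 genes averaging 5 CPM or more, 429 were at least 4-fold above and 211 at least 4-fold below both other ADC tumors in this library. Among ADN tumors the one of mouse m368 stood furthest out, with 238 genes above and 62 below. Of all genes tested, 26.2% had their highest level of the 6 in the ADC tumor of mouse m335 and 25.8% their lowest. For the ADN tumor of mouse m368 these shares were nearly as large, 22.9% and 24.8%. List medians are mostly given with and without the ADC tumor of mouse m335, and for many lists also without another tumor that moved them as much.

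**Figure D1:**
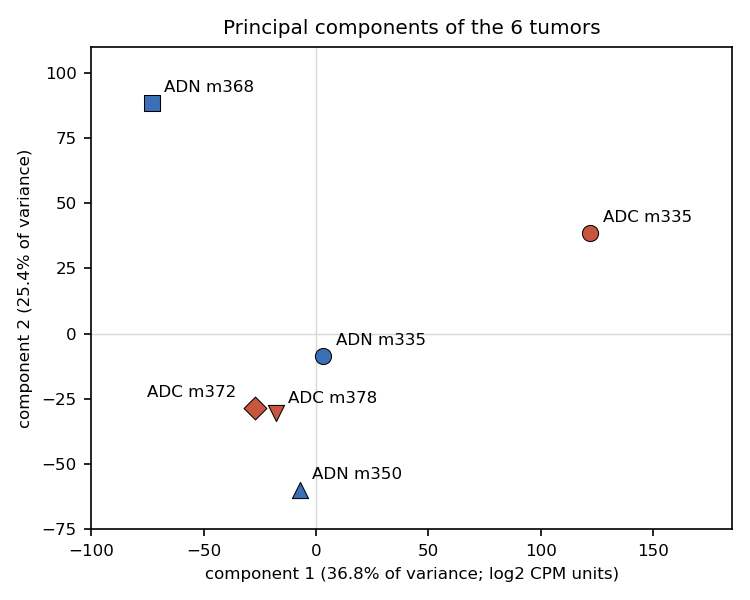
Principal components of log2 CPM in the 6 tumors, component 1 (36.8% of the variance) on the horizontal axis and component 2 (25.4%) on the vertical axis; blue is ADN, red is ADC and the marker shape gives the mouse. The ADC tumors of mice m372 and m378 lie side by side between 2 ADN tumors, and the ADC tumor of mouse m335 lies alone at the right.

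No gene passed an adjusted p of 0.05 in edgeR's quasi-likelihood test, 0 of 14821 tested (0%), whereas 626 (4.22%) had an unadjusted p under 0.05. All 3 ADC tumors lay above all 3 ADN tumors for 749 genes (5.05%) and below them for 700 (4.72%). Tags unrelated to level would give shares of about this size with 3 against 3 tumors. Lack of overlap therefore only describes a gene or list member, and the counts of such members below are to be read beside these shares. The median log2 fold change of all genes was 0.02, and 51.8% lay above 0. DESeq2 passed 64 of the 14568 genes to which it gave an adjusted p (0.439%), 53 lower and 11 higher in ADC. The calls depend on the tool, and the genes below are given with values and described as higher or lower only where the groups do not overlap. The 12 genes of smallest p in each direction among those without overlap had adjusted p-values of 0.741 to 0.9 in edgeR, and 19 of the 24 passed in DESeq2. With the m335 ADC tumor left out, 1675 of 14821 genes lay higher and 1494 lower without overlap. This criterion of 2 tumors against 3 is looser, and more genes meet it when tags are unrelated to level. The 2 tumors of mouse m335 entered the fit as if from separate mice. In bulk tissue fewer cells of a type and less RNA per cell cannot be told apart. List members named below for lack of overlap, and genes outside the rule for named genes such as Alb, Nras, Dusp4 and Etv5, were chosen after their values were seen.

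**Figure D2:**
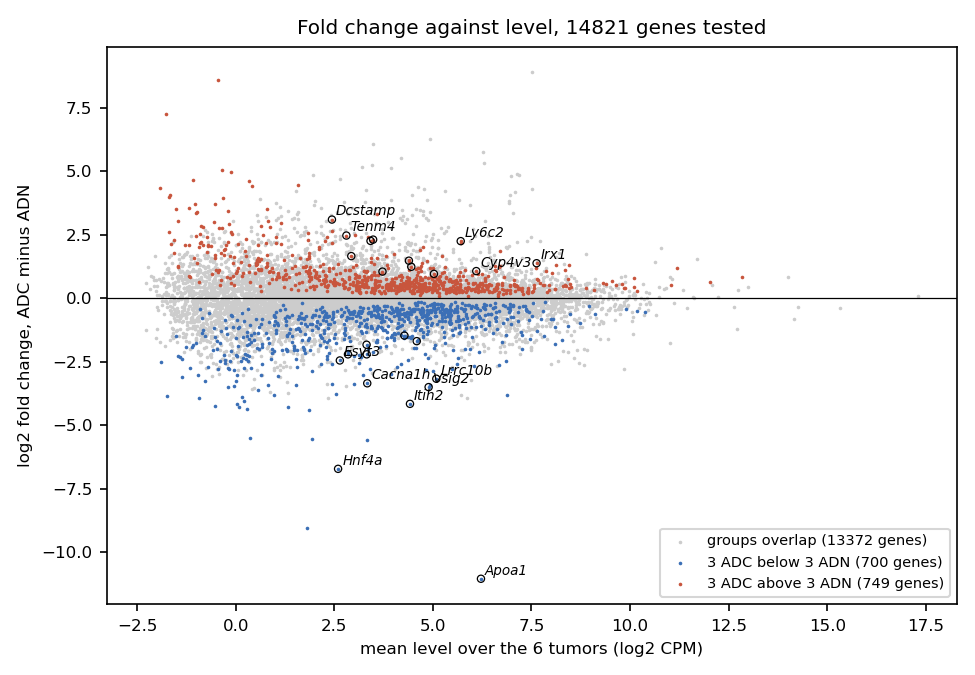
Log2 fold change of ADC against ADN (vertical) against the mean level over the 6 tumors in log2 CPM (horizontal), 1 point per gene tested; red and blue points are the 749 and 700 genes whose groups do not overlap, and circles mark the 24 genes of smallest p. Apoa1 and Hnf4a lie far below the other circled genes.

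Among the 12 lower genes of smallest p, the 3 with the largest fold changes, Apoa1, Hnf4a and Itih2, are genes of liver and gut. Hnf4a (chromosome 2, 163506857 to 163572907), a nuclear receptor that specifies hepatocytes and gut epithelium, was measured at 10, 21.7 and 4.32 CPM in the ADN tumors and at 0, 0.0872 and 0.255 CPM in the ADC tumors. Its log2 fold change was -6.72 with a standard error (SE) of 1.16, and the adjusted p was 0.9 in edgeR and 4.58e-09 in DESeq2. Every ADN tumor was above every ADC tumor and above every normal lung, where the level was 0.175 to 0.982 CPM. Apoa1 (chromosome 9, 46228630 to 46230469), the main protein of high-density lipoprotein, made by liver and intestine, had 90.0, 354 and 3.19 CPM in ADN and 0, 0.0872 and 0.109 CPM in ADC, where it rested on 7 counts in all. Its log2 fold change of -11.05 (SE 1.99) was the largest in size of the 24 ranked genes described below, with an adjusted p of 0.9 in edgeR and 1.06e-06 in DESeq2. The ADN tumor of mouse m350 was the lowest of its tag for both genes. In the 7-month tumors alone, that ADN tumor against 2 ADC tumors, the log2 fold change was -4.99 for Apoa1, -4.70 for Hnf4a and -2.04 for Itih2. With a single ADN tumor, the spread within that tag could not be measured there.

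Gkn2 (gastrokine 2, a secreted protein of the stomach lining; chromosome 6, 87373365 to 87379494) was at 10.3, 43.0 and 6.24 CPM in ADN and at 0, 0.719 and 0.474 CPM in ADC. Normal lungs held at most 0.0293 CPM, so the ADC tumors of mice m372 and m378 lay between the normal lungs and the ADN tumors. Itih2, a heavy chain of the inter-alpha-trypsin inhibitor that the liver secretes, was at 67.5, 43.2 and 10.9 CPM in ADN against 1.5, 3.9 and 1.35 CPM in ADC, a log2 fold change of -4.16 (SE 0.77). Afp, the fetal serum protein of liver and yolk sac, was at 16.8, 23.9 and 13.1 CPM against 2.27, 3.86 and 6.45 CPM, a log2 fold change of -2.10 (SE 0.47). The groups did not overlap for any of these 3.

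These 4 list genes, Hnf4a, Gkn2, Itih2 and Afp, were the members without overlap among 12 tested gastric and endoderm genes. Of all genes, 4.72% lay lower in this way. None of the 12 was called in edgeR, 9 had a log2 fold change below 0, and the list median was -1.60, beside 0.02 for all genes. It was -1.73 without the ADC tumor of mouse m335 and -2.30 without that of mouse m378. Without the ADN tumor of mouse m335 it was -1.37, and without that of mouse m350 it was -1.98. Summed over the list, the ADN tumors held 127, 157 and 43.5 CPM, the ADC tumors 19.2, 14.5 and 18.9 CPM, and the normal lungs 10.1 to 13.6 CPM. The other members overlapped. Albumin (Alb) was at 8.37, 9.46 and 5.11 CPM in ADN and 0.032, 2.66 and 6.27 CPM in ADC, and the stomach peptide Tff1 was highest, at 2.59 CPM, in the ADC tumor of mouse m335. Cdx2 and Pdx1, regulators of intestine and pancreas, had at most 1 count in any tumor, and Hnf4g had 6 counts in 1 ADC tumor and 0 in the other 5 tumors.

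Further secreted and endodermal genes were chosen after their values were seen. Their lying on the same side follows from that choice and adds no support to the list above. That list was itself chosen with earlier results of these data known, and its members Hnf4a and Itih2 are among the ranked genes. Fetub, fetuin B of the liver, was at 306, 182 and 95.7 CPM in ADN and 58.6, 26.9 and 18.4 CPM in ADC. Ghrl, the stomach hormone ghrelin, was at 4.47, 8.50 and 3.02 CPM against 0.288, 0.785 and 0.401 CPM. Fgg, the gamma chain of fibrinogen, was at 2.37, 15.6 and 2.71 CPM against 0.479, 0.0218 and 0.474 CPM, although normal lungs varied from 0.256 to 52.8 CPM. Hhex, a homeobox factor of early liver, was at 82.0, 73.5 and 28.8 CPM against 23, 15.9 and 15.3 CPM. The groups did not overlap for any of the 4, and DESeq2 gave adjusted p-values of 0.00562 for Fetub, 0.000768 for Ghrl, 0.015 for Fgg and 0.0402 for Hhex; edgeR gave 0.9 for each.

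**Figure D3:**
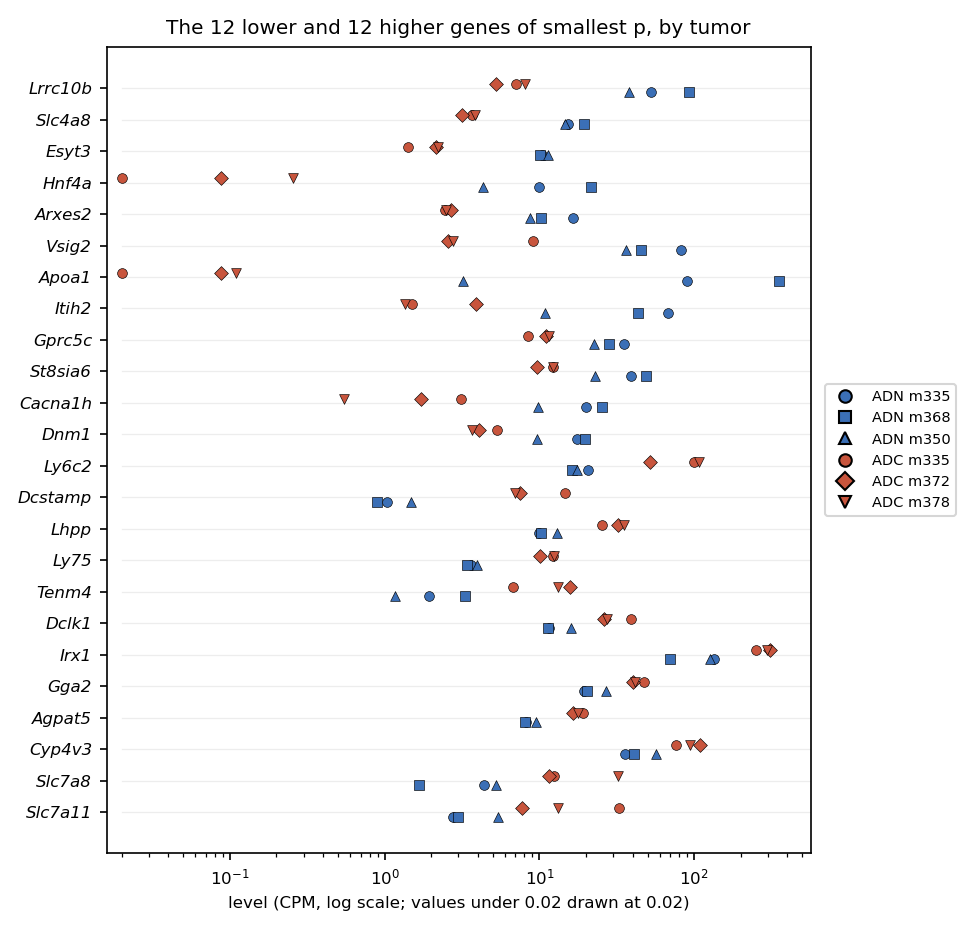
Level in CPM (horizontal, log axis; values under 0.02 drawn at 0.02) of the 12 lower and 12 higher genes of smallest p in each of the 6 tumors; blue is ADN, red is ADC and the marker shape gives the mouse. For each gene the 3 red points lie on 1 side of the 3 blue points, which the choice of genes without overlap fixes. The gap is widest for Hnf4a and Apoa1.

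Promoters were read around the start sites, from 250 bases before to 50 bases after, as RefSeq gives them for GRCm38.p6. Afp is shown because 2 hepatic motifs were found in it, and Apoa1 because its difference was the largest. The Afp window is chr5:90490464-90490763 and the Apoa1 window is chr9:46228380-46228679, both on the plus strand, and capitals mark the motif matches.
Afp: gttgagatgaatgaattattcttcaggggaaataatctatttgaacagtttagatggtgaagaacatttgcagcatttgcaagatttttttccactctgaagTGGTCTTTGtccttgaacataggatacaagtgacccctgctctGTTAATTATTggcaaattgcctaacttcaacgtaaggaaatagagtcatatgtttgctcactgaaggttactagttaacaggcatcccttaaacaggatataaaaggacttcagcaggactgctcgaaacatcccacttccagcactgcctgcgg
Apoa1: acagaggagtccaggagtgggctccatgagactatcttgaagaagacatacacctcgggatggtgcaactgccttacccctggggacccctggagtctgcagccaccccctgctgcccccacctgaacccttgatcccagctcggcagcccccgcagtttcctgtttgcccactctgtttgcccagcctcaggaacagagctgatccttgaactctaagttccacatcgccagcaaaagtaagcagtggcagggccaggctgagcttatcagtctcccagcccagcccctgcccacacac
The motifs were searched on both strands. An HNF4-type sequence (CAAAGNNCA) was found from 148 bases before the Afp start and an HNF1-type sequence (GTTAAT, any base, ATT) from 105 bases before it, and neither was found in the windows of Apoa1, Hnf4a, Itih2 or Gkn2. Of 13 list genes with a RefSeq promoter, 2 held the HNF4-type sequence, Afp and Apoa4. This was 14.3% of their 14 promoters, beside 6.36% of all 32851 promoters. The HNF1-type sequence was in 1 of the 14, or 7.14%, beside 0.399% of all. A match describes these letters only, and no match says nothing of binding elsewhere.

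The other lower genes of smallest p were of mixed function. Lrrc10b, a leucine-rich repeat protein, had the smallest p of all 24 (7.73e-05; adjusted p 0.741 in edgeR). It was at 52.9, 92.5 and 38.2 CPM in ADN, 7.06, 5.28 and 8.05 CPM in ADC and 7.36 to 13.4 CPM in normal lungs. The ADC tumors were thus near the normal level and the ADN tumors well above it. Slc4a8, a sodium-driven chloride and bicarbonate exchanger, was at 15.3, 19.5 and 14.7 CPM against 3.67, 3.18 and 3.83 CPM, with both groups tight. Esyt3, an extended synaptotagmin that tethers the endoplasmic reticulum to the plasma membrane, was at 10.4, 10.1 and 11.3 CPM against 1.41, 2.16 and 2.22 CPM. For Slc4a8 and Esyt3 the normal lungs, at 6.19 to 11.8 and 6.36 to 12.0 CPM, lay above all ADC tumors.

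Vsig2, an immunoglobulin-domain protein of gastric and airway epithelium, was at 82.3, 45.3 and 36.2 CPM in ADN and at 9.14, 2.55 and 2.77 CPM in ADC. Cacna1h, a T-type calcium channel subunit, was at 20, 25.2 and 9.74 CPM against 3.10, 1.72 and 0.546 CPM. St8sia6, a sialyltransferase, was at 39.1, 48.7 and 22.8 CPM against 12.2, 9.72 and 12.3 CPM, all above the 0.668 to 2.70 CPM of normal lungs. The remaining 3, Arxes2, Gprc5c (a relative of the deleted Gprc5a) and Dnm1, the GTPase dynamin 1, had log2 fold changes of -2.21, -1.47 and -1.83. Reads of Cacna1h and Dnm1 may be shared with genes on the opposite strand, Tpsg1 and Ciz1, since the strand setting of the counts is not given in the sources used here.

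Among the higher genes, Ly6c2, a surface antigen of inflammatory monocytes, had the smallest p (0.000207; adjusted p 0.769 in edgeR and 6.93e-06 in DESeq2). It was at 20.5, 16.2 and 17.6 CPM in ADN and 99.6, 51.8 and 108 CPM in ADC, a log2 fold change of 2.25 (SE 0.33; 2.14 without the ADC tumor of mouse m335). Ly6c2 has a near-identical neighbor, Ly6c1, an endothelial gene, and counts may be split between the copies. Dcstamp, a transmembrane protein needed for the fusion of macrophages and osteoclasts, was at 1.03, 0.890 and 1.48 CPM in ADN and 14.7, 7.48 and 6.99 CPM in ADC. The ADC range lay above both the ADN tumors and the normal lungs, which reached 3.42 CPM. Ly75, the endocytic receptor DEC-205 of dendritic cells and epithelium, was at 3.59, 3.43 and 3.98 CPM against 12.3, 10.1 and 12.4 CPM. The monocyte and macrophage list as a whole held only Ly6c2 among 19 tested members without overlap, and its median was 0.48 (-0.18 without the ADC tumor of mouse m335).

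Irx1, an Iroquois homeobox factor of the distal lung, was at 134, 70.2 and 126 CPM in ADN, 251, 310.4 and 295 CPM in ADC and 136 to 337 CPM in normal lungs. Here the ADC tumors lay within the normal range and the ADN tumors below it. Slc7a11, the cystine transporter that feeds glutathione synthesis, was at 2.75, 2.97 and 5.39 CPM against 32.5, 7.74 and 13.1 CPM, and its log2 fold change of 2.26 was 1.49 without the m335 ADC tumor. Slc7a8, a transporter of neutral amino acids, was at 4.37, 1.68 and 5.25 CPM against 12.4, 11.5 and 32.3 CPM. Tenm4, a teneurin adhesion protein, was at 1.94, 3.33 and 1.17 CPM against 6.74, 15.8 and 13.1 CPM. These 4 were ranked among genes without overlap, so their ADC tumors lie above their ADN tumors by that choice. The spread within ADC was widest for Slc7a11 and Slc7a8. The other 5 were Lhpp, Dclk1, Gga2, Agpat5 and Cyp4v3, with log2 fold changes of 1.48, 1.24, 0.96, 1.05 and 1.07. Lhpp and Dclk1 have genes on the opposite strand, Fgfr2 and Gm21954.

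Several members of the lists of EGF receptor genes and of MAP kinase readouts lay lower in ADC, and most members overlapped. Hbegf, a membrane-bound ligand of the receptor, was at 139.8, 161 and 50.6 CPM in ADN and 27.0, 32.1 and 22.8 CPM in ADC, where normal lungs had 23.3 to 38.6 CPM. Ereg, the ligand epiregulin, was at 243, 63.1 and 38.3 CPM against 18.5, 28.8 and 6.48 CPM, all above the 0.409 to 1.58 CPM of normal lungs. Errfi1, a feedback inhibitor of the receptor, was at 837, 340.4 and 219 CPM against 110.5, 124 and 216 CPM. The ADC tumor of mouse m378 thus nearly reached the ADN tumor of mouse m350 for Errfi1. These 3 were the members without overlap among 11 tested, beside 4.72% of all genes that lay lower without overlap. Their log2 fold changes were -2.10 (SE 0.45), -2.68 (SE 0.82) and -1.63 (SE 0.55), and the list median was -0.43. It was -1.11 without the ADC tumor of mouse m335, -1.08 without that of mouse m372 and -0.18 without the ADN tumor of mouse m335. Areg, the ligand amphiregulin, overlapped at 120.3, 46.3 and 27.7 CPM against 47.9, 47.4 and 13.1 CPM, as did the receptor Egfr at 1.71 to 9.01 CPM over all tumors.

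Among 16 tested readouts of the MAP kinase cascade, Dusp5, Dusp6, Spry4 and Spred1 lay lower without overlap and none lay higher. The shares of all genes were 4.72% lower and 5.05% higher. The list median was -0.54 (-0.28 without the ADC tumor of mouse m335, -0.80 without that of mouse m378). Dusp6, the phosphatase that switches ERK off, was at 533, 153 and 168 CPM in ADN and at 113, 115 and 122 CPM in ADC. The ADC values were close together and the ADN tumor of mouse m335 was far above the rest. Dusp5, a nuclear ERK phosphatase that stood outside the rule for named genes, was at 32.2, 24.1 and 10.4 CPM against 5.08, 4.99 and 7.91 CPM, with an adjusted p of 0.0492 in DESeq2 and 0.9 in edgeR. Other readouts did not follow: Dusp4 was at 20.6, 22.7 and 12.8 CPM against 18.4, 21.7 and 27.9 CPM, and Etv5 at 117, 83.1 and 207 CPM against 51.4, 316 and 196 CPM. In the ADC tumor of mouse m335, 12 of the 16 had their lowest level of the 6 tumors.

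Of 16 tested immediate early genes, which respond to growth factors and also to tissue handling, Egr1, Fos and Klf4 lay lower without overlap. The share of all genes that did was 4.72%. The list median was -0.45, and it was -0.93 without the ADC tumor of mouse m335, -0.23 without that of mouse m372 and -0.22 without the ADN tumor of mouse m350. These 3 were chosen after their values were seen. Egr1, a zinc finger factor induced through ERK, was at 235, 206 and 93.0 CPM in ADN and 26.5, 47.7 and 11.8 CPM in ADC, while normal lungs spread from 12.1 to 144 CPM. Its adjusted p was 0.00179 in DESeq2 and 0.9 in edgeR. Fos was at 44.8, 24.9 and 56.0 CPM against 21.6, 14.5 and 12.0 CPM. Other members overlapped: Jun was at 115, 78.1 and 118 CPM against 117, 93.5 and 111 CPM, and Jund at 462, 161 and 324 CPM against 382, 211 and 358 CPM. Time between death and freezing is not given in the labels, and its part in these values was not tested.

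Genes of tumor drivers and suppressors overlapped between tags. Nras, a small GTPase upstream of the MAP kinase cascade, was at 359 CPM in the ADN tumor of mouse m368 and at 52.1 to 107 CPM in the other 5. Trp53 was at 69.8, 31.2 and 33.9 CPM against 73.3, 51.3 and 53.8 CPM, and Cdkn2a, which encodes cell cycle inhibitors, at 17.2, 12.3 and 7.34 CPM against 9.11, 4.75 and 4.34 CPM. Of 19 tested p53 targets, 1 lay higher (Bax) and 3 lower (Mdm2, Eda2r and Polk) without overlap. The p53 target median was 0.13, and it lay between -0.03 and 0.09 when each tumor was left out in turn, lowest without the ADC tumor of mouse m335.

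Igf1r, the receptor for insulin-like growth factor 1, was singled out after its values were seen. It was at 77.9, 548 and 36.1 CPM in ADN and 17.9, 13.3 and 15.4 CPM in ADC. The adjusted p was 0.00179 in DESeq2 and 0.9 in edgeR. All ADC tumors and the ADN tumor of mouse m350 lay below the 40.6 to 46.2 CPM of the normal lungs. The ADN tumor of mouse m368 was far above every other tumor. The ADN tumor of mouse m368 also carried the highest levels of the lung factors Foxp1 and Foxp2. Foxp2 was at 24.8, 197 and 14.7 CPM in ADN and at 8.88, 13.8 and 11.5 CPM in ADC. Foxp1 was at 158, 635 and 100.4 CPM against 109.9, 95.0 and 83.7 CPM and overlapped.

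Alveolar type 2 genes did not separate the tags. Sftpc, which encodes surfactant protein C, was at 53739, 33617 and 51117 CPM in ADN and 11759, 52324 and 42260 CPM in ADC. The ADC tumor of mouse m335 was the outlying library, with the lowest level of the 6 tumors for 16 of the 20 list genes. Summed over the list, it held 55569 CPM, the other tumors 135877 to 167658 CPM and the normal lungs 65972 to 77341 CPM. The list median was 0.00, and it was 0.38 without that tumor and -0.43 without the ADC tumor of mouse m372. None of the 20 was free of overlap. Nkx2-1, the master factor of lung epithelium, was at 220.2, 101 and 191 CPM against 114, 241 and 221 CPM.

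Other epithelial lists showed few genes without overlap. Of 15 alveolar type 1 genes, Ager was lower (1474, 1361 and 1207 CPM against 796, 1188 and 883 CPM) and Rtkn2 higher. Of 15 club cell genes 14 had a log2 fold change below 0, and only Gsta3 was free of overlap. The club cell median was -0.90, and it was -1.52 without the ADC tumor of mouse m335, -0.59 without that of mouse m378 and -0.61 without the ADN tumor of mouse m350. The secretoglobin Scgb1a1 was at 306, 119 and 9104 CPM in ADN and 549.6, 1163 and 1055 CPM in ADC, so that a single ADN tumor set the group mean. All 14 tested ciliated cell genes had a log2 fold change below 0 (median -1.21, -2.17 without the ADC tumor of mouse m335 and -0.48 without the ADN tumor of mouse m350), and none was free of overlap. Foxj1, the factor that switches on motile cilia, was at 35.1, 4.28 and 73.9 CPM against 33.8, 3.36 and 17.2 CPM. In the list of lung lineage factors Foxa2, Gata6 and Foxp2 lay lower without overlap among 16 tested, and Foxa2, a forkhead factor of all endoderm, was at 90.0, 95.4 and 64.7 CPM against 51.3, 60.6 and 54.4 CPM.

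In the list of damaged and transitional epithelium, Krt19 was the only keratin that lay lower without overlap. Krt19, a keratin of simple epithelia, was at 249, 641 and 232 CPM in ADN and 165, 215 and 131 CPM in ADC without overlap. Krt7 overlapped, with a log2 fold change of -1.59 (SE 0.55), as did Krt8 at 568, 773 and 393 CPM against 445, 442 and 426 CPM. The list of 18 had 3 members lower without overlap (Krt19, Ereg and Hbegf) and a median of -0.18 (-0.98 without the ADC tumor of mouse m335). Krt15, a basal cell keratin, split the tumors by another line: it was at 31.8, 9.29 and 1.17 CPM in ADN and at 21.1, 0.109 and 0.109 CPM in ADC.

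Most proliferation genes had a log2 fold change above 0, and most were highest in the ADC tumor of mouse m335. Of 32 tested, 31 had a log2 fold change above 0, 4 lay higher without overlap, among them Bub1, Tk1 and E2f1, and none lower. The median was 0.60, and 0.25 without the ADC tumor of mouse m335, which had the highest level of the 6 for 29 of the 32. Mki67, the proliferation antigen, was at 26.2, 16.6 and 19.4 CPM against 42.4, 19.7 and 30.6 CPM. E2f1, a factor of S-phase entry, was at 5.31, 3 and 10.9 CPM against 14.3, 12.6 and 13.7 CPM, beside 12.4 to 17.0 CPM in normal lungs. For this gene the ADC tumors lay within the normal range and the ADN tumors below it.

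Stromal lists had medians below 0 for endothelial cells, fibroblasts and smooth muscle. Of 24 endothelial genes, Tek, Cldn5, Ramp2 and Sox17 lay lower without overlap, Egfl7 lay higher, and the median was -0.37 (-0.27 without the ADC tumor of mouse m335, -0.57 without that of mouse m378). Cldn5, a tight junction protein of vessels, was at 119, 107 and 137 CPM in ADN, 66.4, 88.6 and 56.8 CPM in ADC and 502 to 1084 CPM in normal lungs, but Pecam1, a pan-endothelial marker, overlapped at 161, 98.4 and 158 CPM against 146, 158 and 108 CPM. Of 18 fibroblast genes 4 lay lower (Tcf21, Wnt2, Inmt and Tbx2), and of 14 smooth muscle and pericyte genes 3 did (Tagln, Myh11 and Cspg4). The share of all genes that lay lower without overlap was 4.72%. The fibroblast median was -0.32 (-0.29 without the ADC tumor of mouse m335, -0.48 without that of mouse m372). The smooth muscle and pericyte median was -0.72 (-0.92 without the ADC tumor of mouse m335, -0.39 without the ADN tumor of mouse m350). Tcf21, a factor of lung fibroblasts, was at 11.1, 15.8 and 19.2 CPM against 4.70, 9.11 and 6.34 CPM, all far under the 51.0 to 136 CPM of normal lungs. The matrix protein Sparc was at 1681, 1808 and 1297 CPM against 1084, 1200 and 974 CPM without overlap, and Col1a1 overlapped at 305, 478 and 132 CPM against 287, 152 and 158 CPM. The normal tissue included with each tumor is not given in the labels, and its part in these values was not tested.

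Apart from the cardiac list described at the end, the highest list medians were those of immune and interferon genes, and these turned on the ADC tumor of mouse m335. Interferons signal through STAT and IRF factors to antiviral genes, guanylate-binding proteins, T cell chemokines and the MHC class I machinery. Of 25 interferon response genes 24 had their highest level of the 6 tumors in that library. The list median was 1.85, and -0.37 without it. Only Ifit2 was free of overlap. Gbp2, a guanylate-binding protein, was at 17.7, 15.7 and 19.3 CPM in ADN and at 1019, 11.9 and 11.3 CPM in ADC. Igtp, an interferon-induced GTPase, was at 20.1, 14.9 and 15.5 CPM against 656, 14.2 and 12.4 CPM. In both of these the ADC tumors of mice m372 and m378 lay below all ADN tumors, so leaving the third out turned the sign of the fold change: -0.61 for Gbp2 and -0.34 for Igtp, beside 4.30 and 3.76 with it.

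Ifng, the interferon of T and natural killer cells, was detected at 13.9 CPM in the ADC tumor of mouse m335, and at 0 or 0.0654 CPM in the other 5. Cxcl9, a chemokine for activated T cells that interferon-gamma induces, was at 7.62, 2.41 and 1.41 CPM in ADN and 454, 1.18 and 1.31 CPM in ADC. Cxcl10, its close relative, was at 10.2, 0.330 and 0.377 CPM against 159.6, 1.24 and 0.729 CPM. Among the other tumors both chemokines were highest in the ADN tumor of the same mouse. MHC class I genes were likewise highest in the ADC tumor of mouse m335 for 13 of 14, with a median of 1.57 (-0.35 without it). B2m, the shared light chain, was at 600.2, 685 and 881 CPM against 7323, 456 and 665 CPM.

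**Figure D4:**
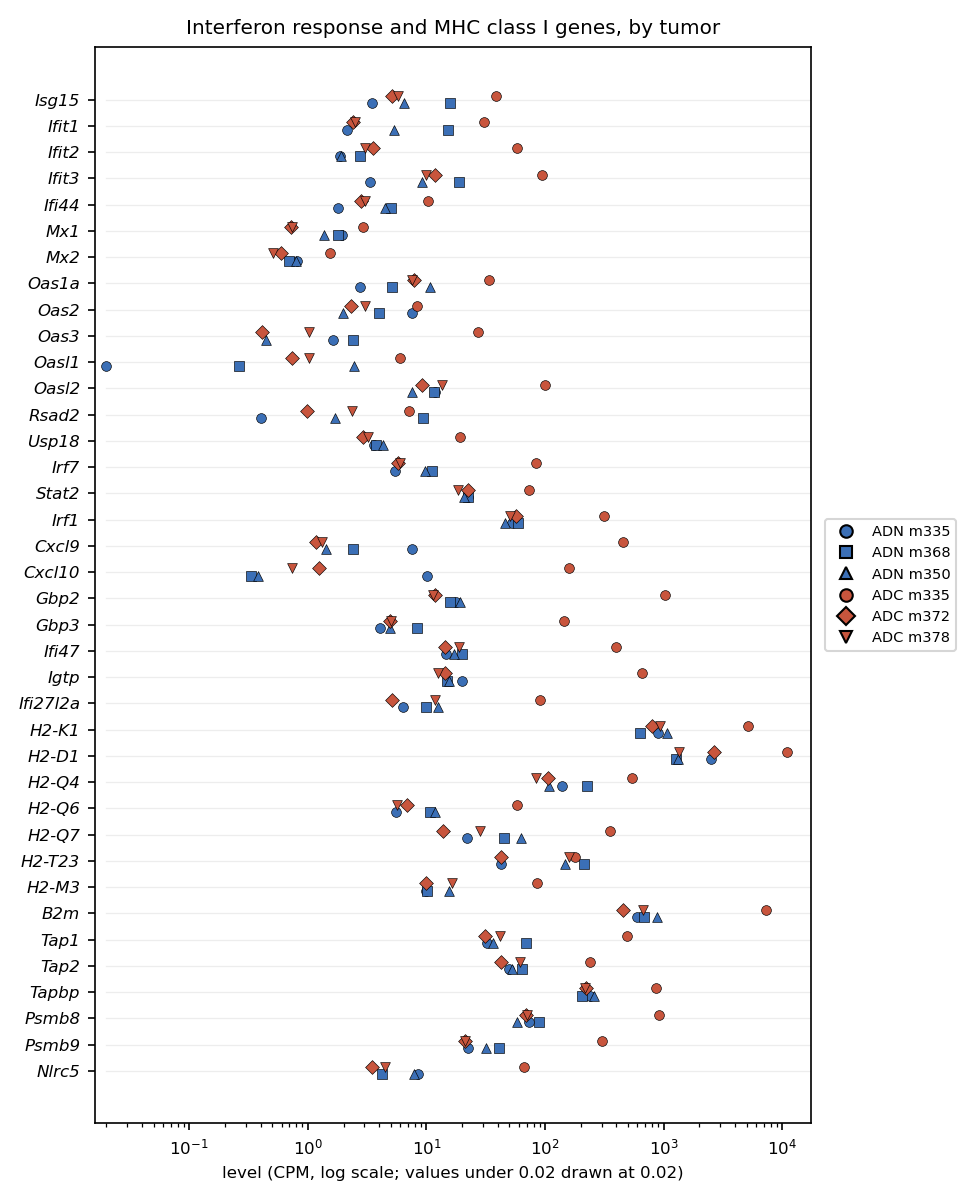
Level in CPM (horizontal, log axis; values under 0.02 drawn at 0.02) of 24 interferon response and 14 MHC class I genes in each of the 6 tumors; blue is ADN, red is ADC and the marker shape gives the mouse. The red circle, the ADC tumor of mouse m335, lies to the right for nearly every gene, and the other 2 red points lie among the blue ones.

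Promoters are shown for 3 interferon-induced genes, chosen among those highest in that tumor because a motif was found in them. The windows of Cxcl9 and Ubd, also highest there, held no match. An ISRE-type sequence, which is 2 GAAA repeats separated by any 2 bases and the kind bound by IRF and STAT factors, was searched on both strands of the same RefSeq windows. The windows are chr3:142620413-142620712 for Gbp2 and chr11:58199306-58199605 for Igtp, both on the plus strand, and chr5:92348840-92349139 for Cxcl10, on the minus strand. Capitals mark matches to the ISRE-type sequence and, in Igtp, to a GAS-type sequence (TTCNNNGAA), the kind bound by STAT dimers.
Gbp2: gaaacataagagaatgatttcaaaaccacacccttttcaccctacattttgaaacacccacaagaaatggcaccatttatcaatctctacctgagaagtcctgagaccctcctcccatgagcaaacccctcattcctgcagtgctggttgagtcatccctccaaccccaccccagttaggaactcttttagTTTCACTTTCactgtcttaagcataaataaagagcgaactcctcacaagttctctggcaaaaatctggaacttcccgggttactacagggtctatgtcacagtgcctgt
Igtp: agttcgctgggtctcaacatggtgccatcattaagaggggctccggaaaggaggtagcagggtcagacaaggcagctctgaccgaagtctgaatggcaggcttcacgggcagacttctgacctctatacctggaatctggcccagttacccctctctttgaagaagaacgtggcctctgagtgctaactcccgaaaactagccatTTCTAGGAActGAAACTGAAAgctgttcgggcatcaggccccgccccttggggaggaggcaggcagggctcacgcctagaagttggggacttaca
Cxcl10: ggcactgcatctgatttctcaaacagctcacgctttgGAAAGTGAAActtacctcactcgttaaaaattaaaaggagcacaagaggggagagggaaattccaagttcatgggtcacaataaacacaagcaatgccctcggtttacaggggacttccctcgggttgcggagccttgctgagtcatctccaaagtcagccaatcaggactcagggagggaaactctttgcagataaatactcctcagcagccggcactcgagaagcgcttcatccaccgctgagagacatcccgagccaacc
The ISRE-type sequence began 59 bases before the start in Gbp2, 34 bases before it in Igtp and 213 bases before it in Cxcl10, and the GAS-type sequence of Igtp began 45 bases before it. Of 19 interferon response genes with a RefSeq promoter, 11 held the ISRE-type sequence. They made up 50% of the 22 promoters of the list, beside 3.44% of all 32851 promoters. The GAS-type sequence was in 18.2% of the list's promoters and 8.30% of all. These shares describe the list and not its level in any tumor.

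Lymphocyte genes followed the same tumor. All 19 tested T cell genes had a log2 fold change above 0 with a median of 1.76, which was -0.65 without the ADC tumor of mouse m335. Cd3e was at 9.22, 3.66 and 2.20 CPM in ADN and 70.5, 3.34 and 4.26 CPM in ADC, beside 12.8 to 32.7 CPM in normal lungs. Natural killer and cytotoxic genes had a median of 1.99 (-1.04 without it), B cell and plasma cell genes 1.54 (-0.52) and immune checkpoint genes 1.70 (-0.75). Cxcl13, which draws B cells into lymphoid follicles, was at 4, 0.89 and 6.66 CPM against 131, 0.610 and 1.13 CPM. Of 10 thymus genes the 3 tested (Cd1d1, Themis and Cd8b1) were also highest in that tumor, and their median was 1.15 (-0.17 without it). The thymus list summed to 43.1 CPM there, to 5.9 to 9.16 CPM in the other tumors and to 15.9 to 439 CPM in normal lungs. Each of the other 7 thymus genes, Rag1, Dntt and Ptcra among them, was at most at 0.383 CPM in any tumor. A lymph node in the dissected piece and lymphocytes within the tumor share these transcripts, and the part of either was not tested.

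Cd276, the checkpoint ligand B7-H3, was the immune checkpoint member without overlap. It was at 26.4, 19.0 and 26.3 CPM in ADN, 46.2, 45.4 and 34.9 CPM in ADC and 9.44 to 13.0 CPM in normal lungs, a log2 fold change of 0.82 (SE 0.25; 0.74 without the ADC tumor of mouse m335). Of 10 MHC class II genes 2 lay higher without overlap. Cd74, the invariant chain, which alveolar type 2 cells also express, was at 6254, 4899.6 and 4573 CPM against 14790.5, 6320.2 and 7011 CPM, and the activator Ciita was at 37.9, 29.0 and 33.7 CPM against 112, 39.8 and 55.3 CPM. The class II median was 0.85, and 0.11 without the ADC tumor of mouse m335.

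**Figure D5:**
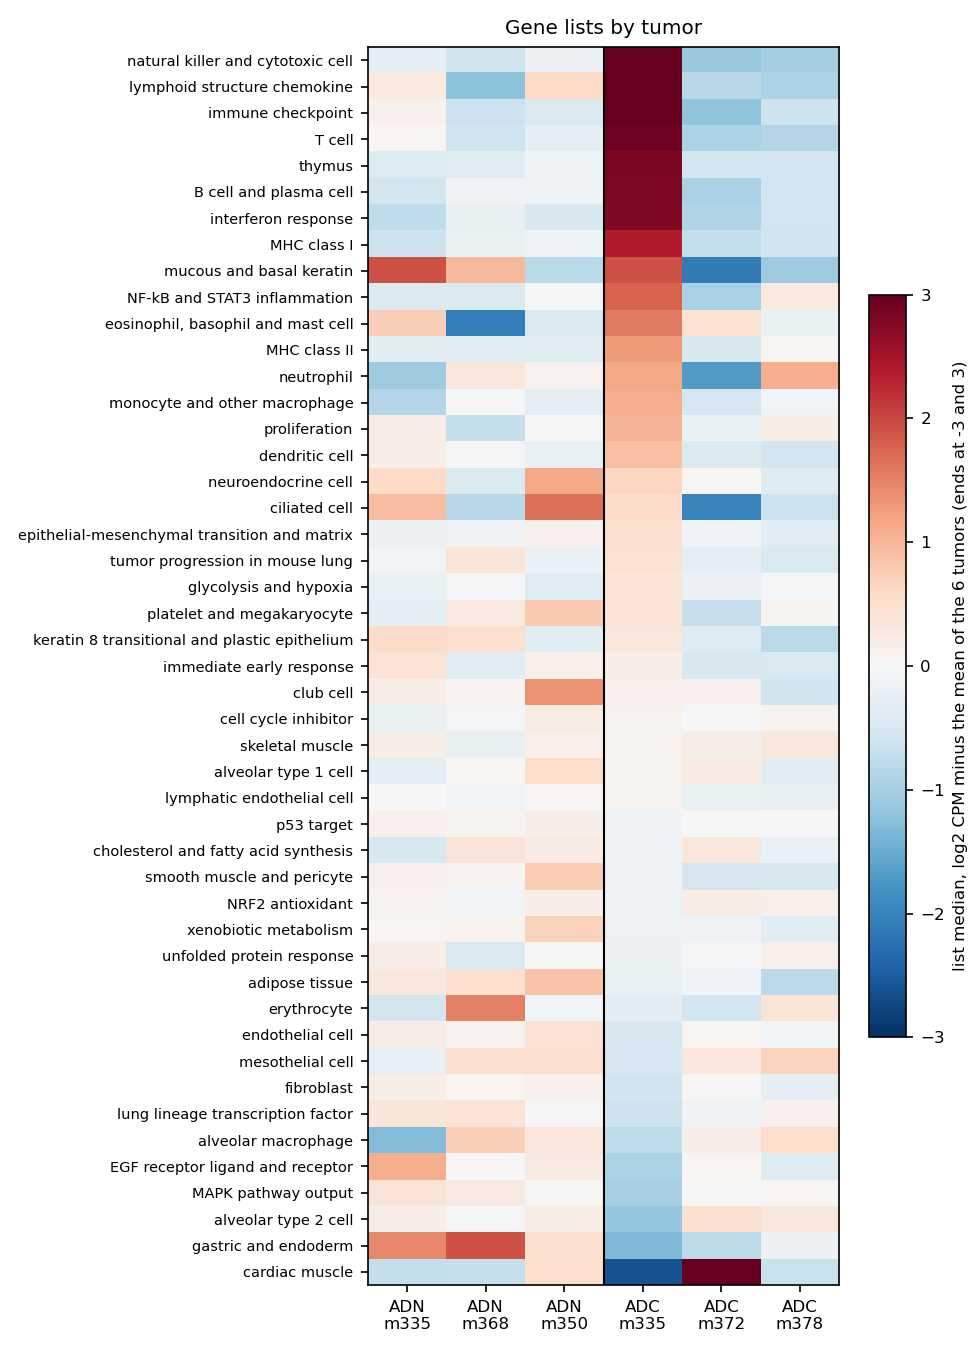
Median over each of the 47 gene lists (rows) of log2 CPM minus the mean of the 6 tumors, by tumor (columns; ADN left of the line, ADC right of it); red is above and blue below that mean, and the scale ends at -3 and 3. The ADC tumor of mouse m335 is red in the immune and interferon rows at the top, and the 3 ADN tumors are red and the 3 ADC tumors blue in the gastric and endoderm row. The signs also split by tag in the fibroblast, smooth muscle and pericyte, xenobiotic metabolism and adipose tissue rows.

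Over the 47 lists, 23 medians lay below 0 and 23 above, and 13 had the opposite sign without the ADC tumor of mouse m335. Counted once each, 630 list genes were tested, of which 38 (6.03%) lay lower and 16 (2.54%) higher without overlap, beside 4.72% and 5.05% of all genes.

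Within mouse m335 the tumors of each tag could be set side by side, 1 against 1 and without a test. The ADC tumor was at least 4-fold above the ADN tumor for 1013 genes (6.83%) and at least 4-fold below it for 689 (4.65%), on a log2 scale with a prior count of 2. The largest differences upward were of 10.79 for Snord32a, 9.91 for Snord55, 9.57 for Clec4d, 9.35 for Ubd and 9.26 for Saa3. Ubd, a ubiquitin-like protein induced by interferon-gamma and tumor necrosis factor, was at 1097 CPM in the ADC tumor and 1.62 CPM in the ADN tumor, and at most 0.480 CPM in the other 4. Saa3, an acute phase protein of inflamed lung, was at 825 CPM against 1.28 CPM. Snord32a and Snord55 are small nucleolar RNAs inside other genes, and their reads may belong to the host transcripts. None of these 5 genes separated the tags once the other tumors were included.

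The largest differences downward within mouse m335 were of -10.52 for Apoa1, -8.02 for Slc35f1, -7.41 for Gkn2, -7.36 for Hnf4a and -7.25 for Ankrd22. Apoa1, Gkn2 and Hnf4a had 0 counts in the ADC tumor and 90, 10.3 and 10 CPM in the ADN tumor of this mouse. Slc35f1 and Ankrd22 were at 0 in that ADC tumor as well but at 4.64 and 21.7 CPM and at 4.36 and 25.2 CPM in the other ADC tumors, so that the tags overlapped. The list medians of the pair were -2.37 for gastric and endoderm genes, -1.90 for EGF receptor ligands and receptors, -1.76 for MAP kinase readouts and -1.15 for alveolar type 2 genes, and 3.92 for interferon response, 3.53 for cytotoxic and 2.93 for T cell genes, beside 0.01 for all genes.

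Metabolic and stress lists had small medians that moved with single tumors. The median of 15 NRF2 targets was 0.04 (0.08 without the ADC tumor of mouse m335, -0.24 without the ADN tumor of mouse m368), with Nqo1 and Slc7a11 higher without overlap. That of 14 unfolded protein response genes was 0.06 (0.07, and -0.14 without the same ADN tumor), and that of 24 lipid synthesis genes (cholesterol and fatty acids) -0.11 (-0.01, and 0.09 without the same ADN tumor). The median of 19 xenobiotic metabolism genes was -0.17 (-0.40 without the ADC tumor of mouse m335, -0.69 without that of mouse m372). Cyp4b1, a cytochrome P450 of the lung, was the xenobiotic gene that lay lower, at 42.0, 69.8 and 77.2 CPM against 30.1, 25.5 and 24.4 CPM. Of 20 glycolysis and hypoxia genes, Pgk1, a glycolytic kinase, was higher without overlap, at 67.1, 48.0 and 65.6 CPM against 256, 86.8 and 86.7 CPM, and the median was 0.28 (0.11 without the ADC tumor of mouse m335, 0.13 without the ADN tumor of mouse m350).

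Heart muscle genes were uneven between single tumors. Myh7, a myosin heavy chain of heart and slow muscle, was at 1663, 2317 and 725 CPM in ADN and 38.5, 1256 and 495 CPM in ADC, beside 16.6 to 100.1 CPM in normal lungs. Myh6, the atrial myosin that lies next to it, was at 10.4, 10.7 and 5.32 CPM against 1.85, 243 and 97.7 CPM. The atrial genes Nppa and Sln reached 294 and 19.6 CPM in 1 library, the ADC tumor from m372, and no more than 0.543 and 0 CPM in the other tumors, although Myh7 was abundant in 4 of those. The cardiac list median of 2.96 rested on the ADC tumor of mouse m372. It was -1.15 without that tumor and 3.50 without the ADC tumor of mouse m335, and no member was free of overlap. Cardiac tissue of the pulmonary veins is one place where atrial genes are expressed, and its part was not tested.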

How the data were processed

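RNA of the 6 tumors and 5 normal lungs was sequenced on an Ion Proton instrument from poly-A selected RNA, per the labels' protocols. The authors deposited estimated counts (expected counts) per transcript, and the submitters' processing notes name STAR 2.4.1d, Bowtie2 2.1.0, Partek and mm10. Neither the annotation nor the strandedness is given in the sources used here. Here 36285 transcript rows were summed to 24515 gene symbols and rounded. Before rounding, 78.4% to 86.2% of gene sums were whole within 0.01. Symbols turned into dates (24) or placed on more than 1 chromosome (58) were not named.

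The 3 ADC and 3 ADN tumors were compared, unpaired, in R 4.3.3 with edgeR 4.0.16 (filterByExpr, TMM, robust quasi-likelihood test), with Benjamini-Hochberg adjustment over 14821 genes at 0.05. Alternatives used DESeq2 1.42.0, limma 3.58.1, other scalings and filters, and each tumor left out.

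Named genes were the 12 per direction of smallest p among genes without overlap and with a mean of at least 5 CPM, up to 3 most abundant members of each list, a fixed set, and the 5 per direction that differed most within mouse m335. The members and the 47 lists were chosen with earlier results of these data known. Normal lungs were placed on the tumors' scale through a common fit of 11 libraries. A few genes that the rule names are not reported here.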

Additional observations from a re-analysis of the deposited data

Results flagged for a closer look

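In the 5 normal lungs, 24 ranked genes were examined for a library far from the others, a criterion that chance meets in about 1 of 20 groups, and 3 genes met it. Ly6c2 reached 53.3 CPM in the lung of mouse m350 and at 25.6 to 29.4 CPM in the other 4. Vsig2 was at 21.5 CPM in that of mouse m335 and at 15.9 to 16.9 CPM in the other 4. Itih2 was at 1.67 CPM in that of mouse m372 and at 0.117 to 0.293 CPM in the other 4. None of these libraries entered the comparison of the tumors.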

How the results depend on the processing

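The number of genes passing the adjusted threshold was 0 in edgeR and 64 in DESeq2 (53 lower and 11 higher). With all 11 libraries in 1 fit it was 3 without a block, all lower (Lrrc10b, Esyt3 and Slc4a8), and 1 with the mouse as a replicate block, also lower (Apoa1, adjusted p 0.0232 in edgeR). Among the 6 tumors alone the mouse cannot be a block, since only m335 gave both tags. limma voom with sample weights, added after seeing the data, passed 0 genes, with 1127 at an unadjusted p under 0.05. Leaving out the ADC tumor of mouse m335, also added after seeing the data, gave 1675 genes higher and 1494 lower without overlap, of 14821. With 2 tumors against 3 the criterion is looser, and more genes meet it when tags are unrelated to level. Of 408 recomputed fold changes of the 24 ranked genes 0 reversed, a direction that choosing genes without overlap largely fixes. In the 7-month tumors alone Slc7a11 was at 0.95 in place of 2.26 and Tenm4 at 3.62 in place of 2.47. Of 329 recomputed list medians 40 changed sign, 13 of them without that tumor. The cause was not tested. Genes at a few counts in ADC, such as Apoa1 with 7 and Hnf4a with 11, have fitted folds that depend on the prior count.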

Other observations

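Jsrp1, which encodes a junctional protein of the sarcoplasmic reticulum, was at 6.78, 12.1 and 1.99 CPM in the ADN tumors and at 0, 0.0218 and 0 CPM in the ADC tumors. It was below the level asked of ranked genes and rested on 643 counts in ADN against 1 in ADC. Ifi208, an interferon-inducible gene, was at 0.125, 0.033 and 0 CPM in ADN and at 2.05, 2.03 and 1.28 CPM in ADC, so all 3 ADC tumors were alike for it, unlike for the interferon response list. Both were chosen after their values were seen.

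The MHC class II gene H2-Eb1 was at 38.1, 790 and 859 CPM in ADN and at 114, 43.6 and 1019 CPM in ADC. Both tumors of mouse m335 and that of m372 were on the low side, and the tags overlapped. Since the other tumors came from separate mice, a difference between mice cannot be told apart from one between tumors.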
